A study of Caenorhabditis elegans with 12 samples.

Results

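The nhr genes encode the nuclear hormone receptors of the nematode Caenorhabditis elegans, and every probe set whose gene symbol begins with nhr- followed by a number was taken. They were 259 of the 17675 genes measured and 303 of the 21541 probe sets. LIN-54 is a DNA-binding subunit of DRM, the worm form of the DREAM complex, which regulates cell cycle and developmental genes, and lin-54 mutants were profiled in 2 tissues. Embryos came from young adults of lin-54(n2990), a partial loss-of-function allele, and of wild-type N2, all grown at 25 °C. Germlines were dissected from lin-54(n3423), a null allele, and from wild-type N2, all grown at 20 °C and taken 24 hours after the L4 larval stage, and they held the region from the mitotic tip to late pachytene. Each of the 4 groups had 3 biological replicates on 1-colour Affymetrix arrays, 12 arrays in all. An embryo pellet mixes cell types and stages, so a lower level can be fewer cells of a type or less RNA per cell, and these cannot be told apart.

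Nuclear hormone receptors are transcription factors that bind DNA through a pair of zinc fingers and carry a ligand-binding domain, through which fats, sterols and other small molecules can set their activity. Nematodes have expanded this family far beyond insects and mammals, mostly by duplication of an HNF4-like ancestor, while a small set keeps clear counterparts in other animals. In worms they govern fat metabolism, the response to diet and stress, molting, and the development of the epidermis and nervous system.

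Of the 259 genes, 161 lay on chromosome V, 29 on IV, 25 on X, 22 on I, 14 on II and 8 on III. Chromosome V thus held 62.2% of the nhr genes, against 24.7% of all genes measured, and X held 9.65% against 14.1%. In the RefSeq order of genes, 126 of the 258 matched nhr genes stood next to another nhr gene, and 100 of these were on chromosome V. RefSeq listed 9 of the 258 as pseudogenes. Of the 303 probe sets, 49 end in _s_at and 4 in _x_at, which mark probes that can also match other transcripts, so close copies within the family may share signal there.

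The labels were first read against lin-54 itself. Its probe set (177366_s_at) read 8.88, 8.14 and 8.18 in lin-54(n3423) germlines, against 9.68, 11.01 and 11.02 in wild-type germlines, on the RMA log2 scale of the deposited tables. The difference was -2.17 ± 0.43 (SE, n = 3 each) and was called by the rule used throughout, a limma p of at most 0.01 with a change of at least 1.5-fold (adjusted p = 1). It was called present on 0 of 3 lin-54(n3423) germline arrays and on 3 of 3 wild-type germline arrays. Whether this probe set lies inside the part deleted in lin-54(n3423) was not examined, so what its remaining signal measures is not known. In lin-54(n2990) embryos it averaged 10.53 ± 0.17, against 10.10 ± 0.09 in wild-type embryos (SD, n = 3 each), and all mutant arrays were the higher ones. Among all probe sets, 50.3 to 54.9% were called present on the lin-54(n2990) embryo arrays and 54.5 to 55.6% on the wild-type embryo arrays. The germline arrays gave 27.6 to 37.1% in lin-54(n3423) and 29.5 to 38.1% in wild-type, and the arrays numbered 1 of both genotypes stood apart from the others, correlating with arrays 2 and 3 at 0.91 to 0.94.

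A minority of the receptors was detected in embryos, and few were in germlines. Detection calls (present, marginal or absent) were scored 1, 0 and -1, summed over the 3 arrays of a group and averaged over the probe sets of a gene, and a gene was taken as expressed above 1.5 and as absent below -1.5. In lin-54(n2990) embryos 96 nhr genes were expressed (37.1%, against 43.8% of all genes), and in wild-type embryos 105 (40.5%, against 47.5%). In lin-54(n3423) germlines 17 were expressed (6.56%, against 23.8% of all genes), and in wild-type germlines 21 (8.11%, against 25.0%). In wild-type, 129 of the 259 were absent in embryos and 208 in germlines. The 2 tables were normalized separately, and germline RNA alone was amplified before labelling and was labelled with another kit, so the tissues were not tested against each other.

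The number of nhr probe sets called present was 139, 112 and 140 on the lin-54(n2990) embryo arrays, against 138, 137 and 139 on the wild-type embryo arrays. The lin-54(n2990) array numbered 2 was below all others, and the other mutant arrays were at or above the wild-type ones. Scored without that array, 104 nhr genes were expressed in lin-54(n2990) embryos, and without either of the other mutant arrays 84 and 85. In germlines the numbers were 35, 40 and 34 in lin-54(n3423), against 38, 39 and 50 in wild-type, and the genotypes overlapped.

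**Figure D1:**
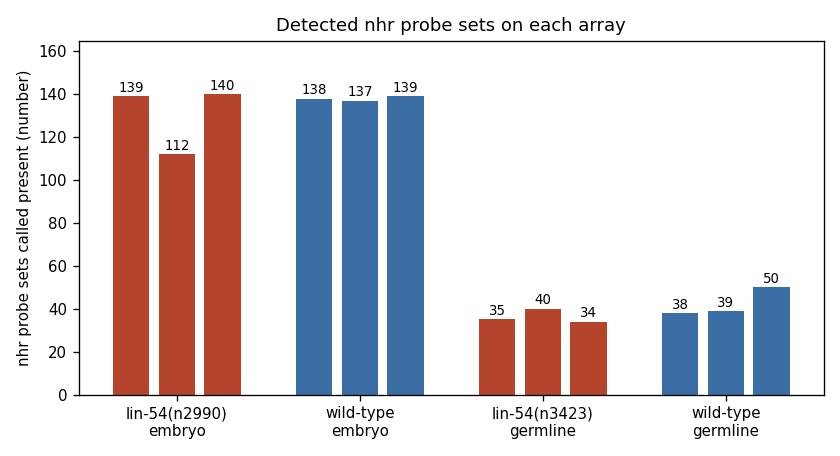
Number of nhr probe sets, of 303, that were called present (y axis) on each of the 3 arrays of each group (x axis; red, lin-54 mutants; blue, wild-type). The second lin-54(n2990) embryo array reads 112 while the other 5 embryo arrays lie between 137 and 140, and the germline arrays lie between 34 and 50.

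Detection varied along the family. Among nhr-1 to nhr-99, which hold most of the receptors with known roles, embryos of wild-type expressed 53 of 91 (58.2%) and wild-type germlines 13 (14.3%). Among nhr-100 and above, these were 52 of 168 (31%) and 8 of 168 (4.76%). On the X chromosome 15 of 25 nhr genes were expressed in wild-type embryos (60%, against 48.5% of all X-linked genes) and 2 in wild-type germlines (8%, against 10.8%). On chromosome V they were 61 of 161 in embryos (37.9%, against 34.0% of all genes of V) and 10 of 161 in germlines (6.21%, against 17.4%). On V, genes next to another nhr gene and genes that were not had much the same share in wild-type embryos, 38.0% and 37.7%.

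The receptors expressed in wild-type germlines were nearly all among those of embryos. Of the 21, 20 were also expressed in wild-type embryos (95.2%), and they made up 19.0% of the 105 embryonic ones. Among all genes, 92.2% of the germline-expressed were also expressed in embryos, and these were 48.5% of the embryonic ones. The exception was nhr-245 on chromosome I, called present on all 3 wild-type germline arrays and on no wild-type embryo array. Another 153 nhr genes were expressed in neither.

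In embryos, few receptors differed between the genotypes. By the same rule 5 nhr probe sets of 3 genes (1.65%) were higher in lin-54(n2990) embryos, against a background of 3.38% of all probe sets, and 1 (0.33%) was lower, against 1.53%. The higher genes were nhr-2, nhr-232 and nhr-162, and the lower one nhr-98. No nhr probe set reached an adjusted p of 0.05, which 0.265% of all probe sets did, and 15 higher and 35 lower ones had an unadjusted p of at most 0.05 (4.95 and 11.6%, against 12.5 and 12.9% of all). With the replicate number as a block, 5 were called higher (nhr-2 on 3 probe sets, nhr-162 and nhr-205; background 4.27%) and 3 lower (nhr-98, nhr-31 and nhr-50; background 3.62%).

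nhr-2, a receptor supplied by the mother and transcribed in the early embryo, where it is needed for development, rose on 3 of its 4 probe sets. On 193015_s_at it read 11.25, 11.51 and 11.21 in lin-54(n2990) embryos, against 10.50, 10.52 and 10.59 in wild-type embryos. Each mutant array was above every wild-type array, and the lowest mutant array exceeded the highest wild-type array by more than the range within either group. The difference was 0.79 ± 0.10 on the log2 scale (SE, n = 3 each; 1.73-fold; limma, adjusted p = 0.0652). The other probe sets rose by 0.66 ± 0.12 (187812_s_at, adjusted p = 0.0936) and 0.59 ± 0.13 (173878_at, adjusted p = 0.105). The fourth, 187811_at, was called absent on all 6 arrays and differed by 0.01 ± 0.11. With any single array left out, the difference on 193015_s_at stayed between 0.69 and 0.84 and was called.

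The other 2 higher genes lie on chromosome V and have no role given here. nhr-232 read 7.72, 7.97 and 7.71 in lin-54(n2990) embryos, against 7.50, 6.96 and 7.13 in wild-type embryos. The groups did not overlap, and the difference was 0.61 ± 0.16 (adjusted p = 0.120). This call was lost with the replicate block (adjusted p = 0.111) and when any array except wild-type 1 was left out. nhr-162 read 5.83, 5.97 and 5.67 in lin-54(n2990) embryos, against 5.29, 5.14 and 5.28 in wild-type embryos. Its difference of 0.59 ± 0.10 (adjusted p = 0.0866) stood just inside the fold threshold and fell under it without the mutant array 1 (0.58), the mutant array 2 (0.51) or the wild-type array 2 (0.54).

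nhr-98, also on chromosome V and next to another nhr gene, was the only receptor called lower. Its probe set 175979_at read 7.46, 7.13 and 7.60 in lin-54(n2990) embryos, against 8.11, 7.92 and 7.95 in wild-type embryos. No mutant array reached the wild-type ones, and the difference was -0.59 ± 0.14 (1.51-fold, adjusted p = 0.112). The call was kept only without the mutant array 3, and was lost when any of the other 5 arrays was left out (-0.63 to -0.46). A second probe set of the gene, 175258_at, was called absent on all 6 arrays and differed by -0.16 ± 0.07.

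Several receptors had differences of like or greater size that did not pass, with mutant arrays that spread widely. nhr-62, which is needed for the longer life of worms under dietary restriction, read 7.84, 7.27 and 8.57 in lin-54(n2990) embryos, against 8.88, 8.97 and 8.99 in wild-type embryos. All 3 mutant arrays were below the wild-type ones, the array numbered 2 furthest, and the difference was -1.06 ± 0.31 (limma, adjusted p = 0.136). It was -0.75 without that array and -1.39, and called, without the mutant array 3. nhr-3 on the X chromosome read 9.98, 9.39 and 10.55 in lin-54(n2990) embryos, against 10.83, 10.68 and 10.93 in wild-type embryos, a difference of -0.84 ± 0.29 (175726_s_at, adjusted p = 0.157). It was -0.55 without the mutant array 2 and -1.13, and called, without the mutant array 3. Its second probe set differed by -0.83 ± 0.30. In the same order of mutant arrays, nhr-213 and nhr-21 differed by -0.82 ± 0.34 and -0.76 ± 0.28. For each of these 4 genes the mutant array 2 was lowest and the mutant array 3 closest to wild-type.

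nhr-31, which drives the genes of the proton pump in the excretory cell, read 9.13, 8.33 and 9.62 in lin-54(n2990) embryos, against 10.09, 9.40 and 10.01 in wild-type embryos. The groups overlapped, but both arrays numbered 2 were low, and the difference of -0.81 ± 0.36 was called with the replicate block (adjusted p = 0.0748) and not without it. nhr-205 on chromosome V read 7.48, 7.25 and 7.97 in lin-54(n2990) embryos, against 7.07, 6.57 and 6.90 in wild-type embryos. Its difference of 0.72 ± 0.22 missed the threshold without the block (adjusted p = 0.139) and passed with it (adjusted p = 0.0785). nhr-50, called lower with the block at -0.70 on 193510_s_at, was absent on all 6 arrays there.

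**Figure D2:**
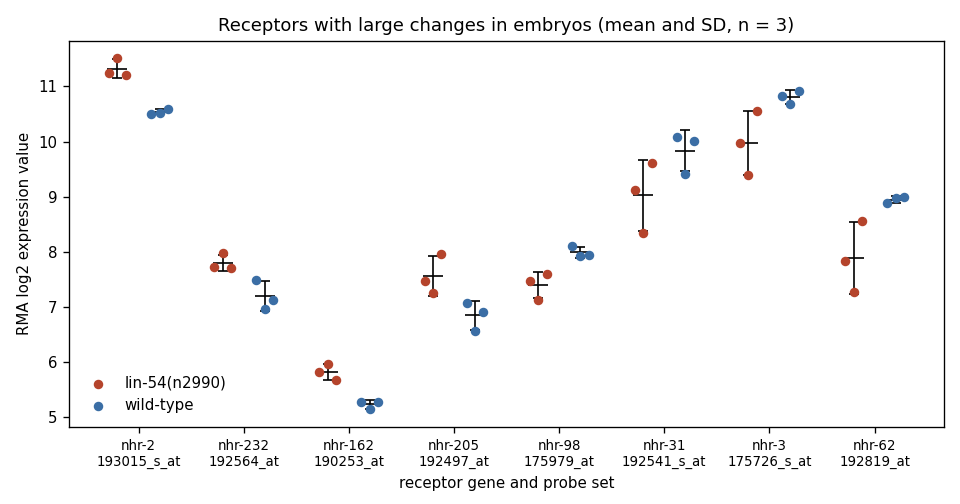
RMA log2 expression values (y axis) of 8 receptors (x axis, with probe set) on each embryo array, red for lin-54(n2990) and blue for wild-type; black marks give the mean and SD of 3 arrays. nhr-2 reads 11.21 to 11.51 in the mutant and 10.50 to 10.59 in wild-type, while the mutant arrays of nhr-62 spread between 7.27 and 8.57 below wild-type arrays at 8.88 to 8.99.

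Across the family, differences in embryos were small. The 303 nhr probe sets had a median difference of -0.05 on the log2 scale, against 0.00 for all probe sets, and ranged between -1.06 and 0.79. After each array was centred on its median, the nhr median was 0.05 and that of all probe sets 0.10, so the sign of the nhr median depends on the scaling while it stayed below that of all probe sets. Of the nhr probe sets, 105 (34.7%) lay above 0, against 50.7% of all probe sets. In 60 (19.8%) all lin-54(n2990) arrays were below all wild-type arrays, against a background of 17.6%, and in 27 (8.91%) all were above, against 15.2%. Among the 100 nhr probe sets present on all 6 embryo arrays, 25 were below without overlap and 11 above (25 and 11%), against 15.2 and 23.9% of the 9410 such probe sets of all genes.

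Cell type markers were measured in the same embryos, and some lists stood apart between the genotypes while others overlapped. Of 7 genes of late embryonic differentiation (muscle, neuron and epidermis), 6 were measured, none was called, and their mean level was 9.20 to 10.36 on the lin-54(n2990) arrays and 10.47 to 10.67 on the wild-type arrays, all 6 being expressed or between expressed and absent in wild-type. Of 8 markers of the mitotic and pachytene germline, glh-1 and syp-1 were called higher and none lower, with a mean level of 9.21 to 9.93 on the lin-54(n2990) arrays and 8.64 to 8.87 on the wild-type arrays. The 4 maternal early embryo genes averaged 10.32 to 11.42 in lin-54(n2990) and 10.08 to 10.61 in wild-type, overlapping and with none called. The muscle list averaged 7.79 to 9.19 in lin-54(n2990) and 9.56 to 9.77 in wild-type, and the neuron list 9.38 to 9.84 and 9.99 to 10.09. Both share genes with the late differentiation list. The oocyte, gastrulation and epidermis lists overlapped between genotypes, and none of these lists held a called gene. The 4 sperm markers were absent in both. Of 5 intestine markers, asp-1, a digestive protease, was called lower, and vit-2 was absent in both. asp-1 read 9.06, 7.48 and 10.10 in lin-54(n2990) embryos, against 11.31, 10.98 and 11.55 in wild-type embryos, a difference of -2.40. The list's mean level was 7.41 to 7.85 in lin-54(n2990) and 8.01 to 8.09 in wild-type. Of its 6 probe sets, 3 lay above 0, and the median difference of the 6 was -0.06. The part of embryo stage or cell makeup in the receptor values was not tested.

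**Figure D3:**
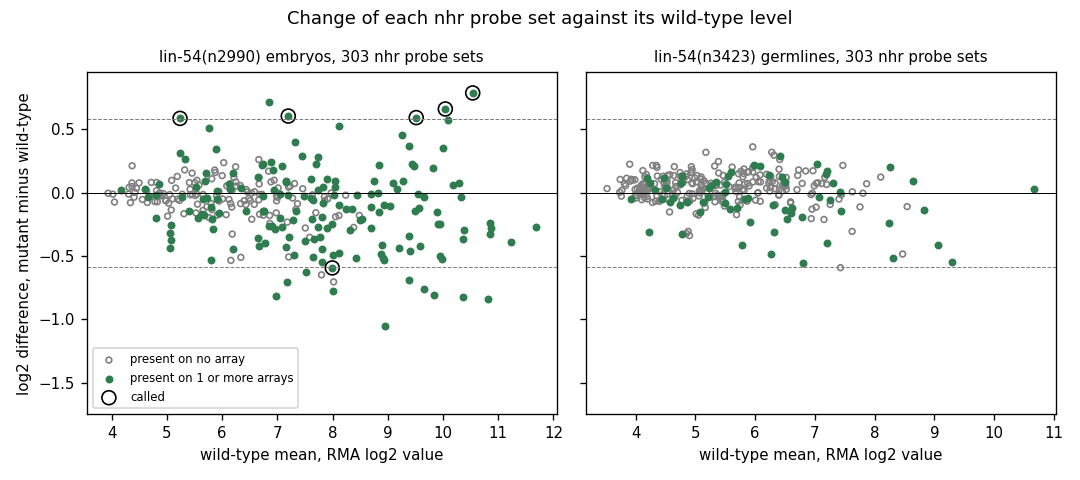
Log2 difference, mutant minus wild-type (y axis), of each of the 303 nhr probe sets against its mean wild-type RMA log2 value (x axis), in embryos on the left and germlines on the right. Green points were present on 1 or more arrays, open points on none, black rings mark the 6 called probe sets, and dashed lines the 1.5-fold threshold; embryo values run between -1.06 and 0.79 and germline values between -0.59 and 0.36.

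The receptors conserved between animals differed little in embryos. None of the 12 (16 probe sets) was called, 8 were expressed in both genotypes, and nhr-6, nhr-41, nhr-85 and nhr-111 were absent in both. The median difference of the 16 probe sets was -0.12, and 1 of them lay above 0. nhr-25, the counterpart of fly FTZ-F1, which acts in the epidermis and at the molts, read 10.07, 10.36 and 10.43 in lin-54(n2990) embryos, against 10.35, 10.32 and 10.28 in wild-type embryos (175663_at), and the groups overlapped with a difference of -0.03 ± 0.11. nhr-23, the counterpart of fly DHR3 and vertebrate ROR, which drives the molting cycle, differed by -0.25 ± 0.12 (175831_s_at) and -0.03 ± 0.07 (194130_s_at). nhr-67, the counterpart of fly tailless, differed by -0.13 ± 0.07, and nhr-91, the counterpart of vertebrate GCNF, by -0.46 ± 0.27, or -0.15 without the mutant array 2. nhr-8, a relative of the dafachronic acid receptor DAF-12 that handles sterols and foreign compounds, differed by -0.30 ± 0.15, and nhr-48, of the same group, by -0.13 ± 0.08. nhr-64 and nhr-69 differed by -0.10 ± 0.07 and -0.11 ± 0.16. None of these differences reached an unadjusted p of 0.05.

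Of 7 receptors tied to the early embryo and epidermis, 5 were measured, and nhr-2 was the only one called. nhr-60 differed by -0.14 ± 0.08, and nhr-23, nhr-25 and nhr-67 are given above.

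Receptors of metabolism, stress and diet were mostly expressed in embryos. Of the 19, 16 were expressed in lin-54(n2990) embryos and 15 in wild-type embryos, nhr-76, nhr-80 and nhr-114 were absent in both, and none was called. Their 26 probe sets had a median difference of -0.10, with 6 above 0. nhr-49, which controls fatty acid desaturation and fat burning, read 11.36, 11.30 and 11.54 in lin-54(n2990) embryos, against 11.89, 11.59 and 11.55 in wild-type embryos (174017_at). The mutant arrays lay below the wild-type arrays by a gap smaller than the spread within either group, and the difference was -0.27 ± 0.12 (adjusted p = 0.224). Its second probe set gave -0.28 ± 0.11.

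nhr-66, a partner of NHR-49 in lipid metabolism, read 9.97, 9.99 and 10.02 in lin-54(n2990) embryos, against 10.24, 10.48 and 10.37 in wild-type embryos (192260_at). The groups were apart, and the difference of -0.37 ± 0.09 had a p of 0.00508 (adjusted p = 0.112) but was under the fold threshold. Its second probe set differed by -0.42 ± 0.13. nhr-45 and nhr-40, both X-linked, differed by -0.53 ± 0.19 (193486_at) and -0.51 ± 0.21 (175720_at), with no array of the mutant above wild-type. nhr-40 is needed for muscle development. The X-linked nhr-14, which responds to iron, differed by -0.44 ± 0.24, or -0.16 without the mutant array 2.

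The values above 0 in this group came from nhr-13, nhr-68, nhr-86, nhr-10 and 1 probe set of nhr-28. nhr-13, another partner of NHR-49, differed by 0.37 ± 0.16 and was present on 3 lin-54(n2990) arrays and 1 wild-type array. nhr-68 and nhr-10, which turn on the alternative breakdown pathway for propionate, differed by 0.36 ± 0.33 and by 0.06 ± 0.11 and 0.07 ± 0.13 on the 2 probe sets of nhr-10. nhr-68 read 10.45, 9.82 and 10.77 in lin-54(n2990) embryos, against 10.22, 9.43 and 10.34 in wild-type embryos. Both of its arrays numbered 2 were low, and each mutant array was above the wild-type array of its own number. nhr-86, a sensor of bacterial metabolites in the intestine, differed by 0.23 ± 0.15, and nhr-57, a target of the hypoxia factor HIF-1, by -0.03 ± 0.12.

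**Figure D4:**
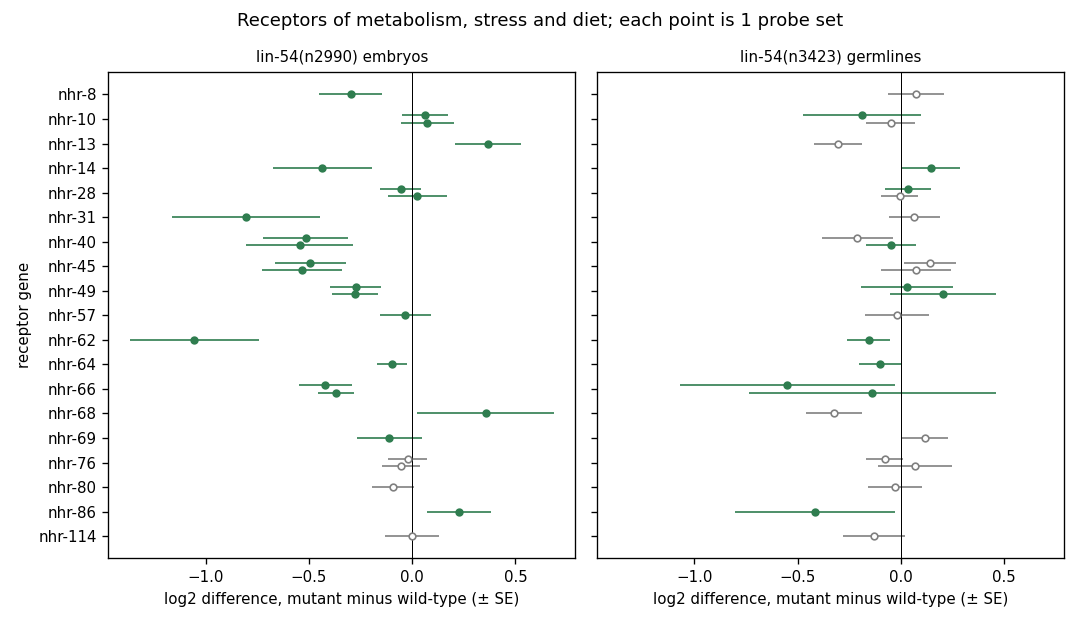
Log2 difference, mutant minus wild-type, with its standard error (x axis) for each probe set of the 19 receptors of metabolism, stress and diet (y axis), in embryos on the left and germlines on the right; open grey points were present on no array. nhr-62 at -1.06 and nhr-31 at -0.81 lie furthest from 0 in embryos, and no point in either tissue was called.

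The remaining receptors named for their wild-type embryo values were nhr-11 and nhr-46. RMA values of different probe sets depend on the probes, so they do not rank the receptors by abundance. nhr-11 read 11.20, 10.06 and 11.28 in lin-54(n2990) embryos, against 11.35, 11.24 and 11.12 in wild-type embryos (192634_at). The mutant array 2 alone was low, and the difference was -0.39 ± 0.33. nhr-46 read 10.56, 10.50 and 10.49 in lin-54(n2990) embryos, against 10.91, 10.91 and 10.71 in wild-type embryos (192835_at). The groups did not overlap, and the difference of -0.33 ± 0.08 had a p of 0.00819 but was under the fold threshold (adjusted p = 0.119). nhr-12 on chromosome V read 10.70, 10.38 and 10.90 in lin-54(n2990) embryos, against 10.41, 9.91 and 9.92 in wild-type embryos, a difference of 0.58 ± 0.19 with 1 array of each genotype overlapping.

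A few receptors switched detection call between genotypes, and they were picked out after their values were seen. A probe set of each of nhr-51, nhr-175, nhr-194 and nhr-228 was called present on no lin-54(n2990) embryo array and on all 3 wild-type embryo arrays. For nhr-161 it was the other way round. nhr-51 has 2 probe sets, and its score over both was 0 in wild-type embryos. The share of all probe sets that switched in this way was not counted, so these counts have no background. nhr-194 read 6.29, 6.06 and 6.36 in lin-54(n2990) embryos, against 6.66, 6.55 and 6.77 in wild-type embryos, a difference of -0.42 ± 0.11 (adjusted p = 0.119). nhr-161 read 7.74, 7.69 and 7.75 in lin-54(n2990) embryos, against 7.48, 7.40 and 7.43 in wild-type embryos, a difference of 0.29 ± 0.07 (adjusted p = 0.111). Neither passed the fold threshold, and nhr-175 differed by 0.07 ± 0.09, opposite to its calls. All 5 lie on chromosome V, which holds 62.2% of the nhr genes.

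In germlines no nhr probe set was called in either direction, where 0.0696% of all probe sets were called higher and 0.371% lower in lin-54(n3423). limma with the replicate block also called 0, against a background of 0.297% higher and 0.984% lower. At an unadjusted p of at most 0.05 there were 1 higher (0.33%, against 0.831% of all) and 6 lower (1.98%, against 1.67%), and no probe set of any gene reached an adjusted p of 0.05. The median nhr difference was 0.04, against 0.02 for all probe sets, and the range ran between -0.59 and 0.36. In 16 nhr probe sets (5.28%, background 4.02%) all lin-54(n3423) arrays were above all wild-type arrays, and in 15 (4.95%, background 3.15%) all were below. Of the 303 nhr probe sets, 239 (78.9%) were present on none of the 6 germline arrays, so most of these values lie at the level of undetected probes.

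nhr-70 on chromosome V came closest to a call among the receptors detected in germlines. It read 6.18, 6.46 and 6.11 in lin-54(n3423) germlines, against 6.54, 6.86 and 7.01 in wild-type germlines. The groups did not overlap, and the difference was -0.55 ± 0.17 (limma, adjusted p = 1), with an unadjusted p over the threshold. It was called without the wild-type array 1 (-0.68) and without both arrays numbered 1 (-0.65). In embryos nhr-70 differed by -0.11 ± 0.17.

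The 10 receptors with the largest probe set values among the 21 expressed in wild-type germlines were nhr-49, nhr-66, nhr-86, nhr-46, nhr-12, nhr-14, nhr-100, nhr-97, nhr-37 and nhr-243. nhr-49 read 10.32, 10.76 and 11.04 in lin-54(n3423) germlines, against 10.44, 10.89 and 10.69 in wild-type germlines (174017_at). The genotypes overlapped, with a difference of 0.03 ± 0.22. nhr-66 read 7.75, 9.02 and 9.44 in lin-54(n3423) germlines, against 8.60, 9.67 and 9.59 in wild-type germlines (174022_at). The arrays numbered 1 were low in both genotypes, each mutant array was below the wild-type array of its own number, and the difference was -0.55 ± 0.52. nhr-86 read 8.17, 8.81 and 8.93 in lin-54(n3423) germlines, against 8.31, 9.26 and 9.59 in wild-type germlines, with the same low arrays and a difference of -0.42 ± 0.39.

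nhr-46 read 7.20, 8.25 and 7.94 in lin-54(n3423) germlines, against 8.28, 8.36 and 8.29 in wild-type germlines (174020_at). The mutant array 1 was furthest from the wild-type arrays, and the difference was -0.51 ± 0.28. The second probe set of nhr-46 differed by -0.04. The other 6 of the 10 differed by between -0.48 (nhr-243) and 0.29 (nhr-37) with overlapping genotypes. nhr-23 read 8.14, 9.06 and 9.02 in lin-54(n3423) germlines, against 8.12, 8.87 and 8.97 in wild-type germlines on 175831_s_at, which was present on all 6 arrays. Its second probe set was absent on all 6, which kept the gene from counting as expressed.

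**Figure D5:**
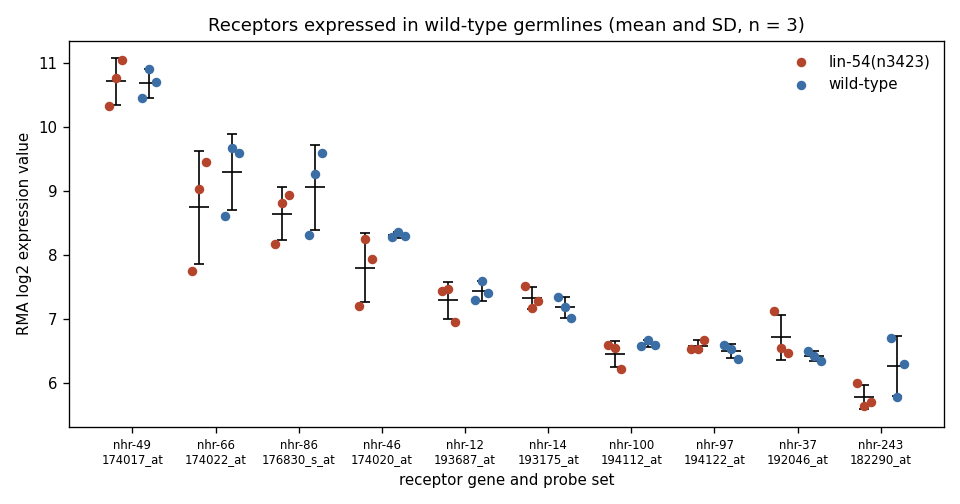
RMA log2 expression values (y axis) of 10 receptors expressed in wild-type germlines (x axis, with probe set) on each germline array, red for lin-54(n3423) and blue for wild-type, points in array order; black marks give the mean and SD of 3 arrays. The first array of each genotype reads low for nhr-66 (7.75 in the mutant and 8.60 in wild-type) and nhr-86 (8.17 and 8.31), and no receptor was called.

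The same lists held no called receptor in germlines. Of the 12 conserved receptors, none was expressed in lin-54(n3423) germlines and 1, nhr-48, in wild-type germlines, and 13 of their 16 probe sets lay above 0 with a median difference of 0.07. nhr-48 differed by 0.00 ± 0.11. Of the 19 receptors of metabolism, stress and diet, 4 were expressed in lin-54(n3423) germlines and 5 in wild-type germlines, with a median difference of -0.04 over 26 probe sets. The difference of 1 was nhr-62, present on 0 of 3 lin-54(n3423) arrays and 3 of 3 wild-type arrays with a difference of -0.16 ± 0.11. nhr-2 was present on at most 2 of 3 arrays of either genotype and differed by -0.10 ± 0.16 (193015_s_at).

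Among markers in the germline arrays, inx-8, a gap junction gene of the gonadal sheath, was called lower in lin-54(n3423), at 7.56, 7.09 and 6.97 against 10.01, 9.59 and 10.02 in wild-type germlines. The 3 measured genes of its list had a mean level of 6.05 to 6.34 on the lin-54(n3423) arrays and 6.89 to 7.17 on the wild-type arrays, with ceh-18 and lim-7 absent. Of the list's 4 probe sets, 3 lay above 0 and the median difference was 0.06, so the lower mean came from inx-8 alone. The 3 measured muscle markers averaged 4.86 to 5.18 in lin-54(n3423) and 4.84 to 5.32 in wild-type, and myo-3 and hlh-1 were absent in both. The third, unc-15, was present on 1 lin-54(n3423) and 2 wild-type arrays on both 175568_at and 194170_s_at, and on none on 190436_at. On 194170_s_at it read 5.42, 6.66 and 4.41 in lin-54(n3423), against 5.94, 4.80 and 7.28 in wild-type. The 5 intestine markers averaged 6.32 to 7.59 in lin-54(n3423) and 6.62 to 7.54 in wild-type, and the yolk protein gene vit-2 was present on 2 lin-54(n3423) and 3 wild-type arrays, at 5.73, 9.56 and 6.04 against 5.88, 7.63 and 9.20. The 8 markers of the mitotic and pachytene germline averaged 8.71 to 10.25 in lin-54(n3423) and 8.64 to 9.87 in wild-type, with none called. The part of sheath or intestinal cells in the receptor values was not tested.

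In 3 nhr probe sets (0.99%, against a background of 0.65% of all probe sets) every mutant array was below every wild-type array in both tissues, which have separate controls. nhr-21 differed by -0.76 in embryos and -0.41 in germlines, where it was present on 1 lin-54(n3423) array and 3 wild-type arrays. nhr-62 differed by -1.06 and -0.16, and nhr-46 (174020_at) by -0.24 and -0.51. nhr-172 was above in both, by 0.21 and 0.22 (0.33%, against 0.668%). None of these 8 differences was called, and the second probe set of nhr-46 differed by only -0.04 in germlines. In 6 nhr probe sets (1.98%, against 0.956% of all) the groups stood apart in opposite directions in the tissues, none of them detected in germlines.

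Probe sets of 1 gene did not always move together. For the 37 nhr genes with several probe sets (81 in all), all probe sets of a gene had a difference of 1 sign in 31 genes in embryos and in 18 in germlines. Their wild-type values were over 2 log2 units apart in 5 genes in embryos and in 7 in germlines.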

How the data were processed

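RNA of 12 samples was hybridised to Affymetrix C. elegans arrays. The deposited tables, 1 per tissue, hold log2 expression values that the authors made with RMA (the affy package), and detection calls of present, marginal or absent (given as other, non-numeric values) that the authors deposited beside them. Columns of the authors' own comparisons (fold changes and p-values) were not used. Depth does not apply, and the number of arrays limits the precision.

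Each table was fitted in limma 3.58.1 (R 4.3.3) as mutant minus wild-type over all 21541 probe sets, with lmFit and eBayes on the deposited log2 values and Benjamini-Hochberg adjustment over the whole table. A call needed a p of 0.01 or less together with a change of 1.5-fold or more, after the study's methods. An exact permutation test of 3 against 3 arrays cannot go below 0.1. Detection scores ran over each gene's probe sets, with 1.5 as the limit. On simulated data, the embryo fit recovered 44% of 1.5-fold and 94% of 2-fold changes, and the germline fit 34% and 70%. A simulated 1.5-fold change sits on the fold threshold, so every estimate that falls short of it is missed. The simulated noise was drawn independently for each array, without the effects that same-numbered arrays share.

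Replicate numbers in the labels were taken to pair the samples, since every same-numbered pair was over 0.1: deviations from the group means correlated at 0.25, 0.36 and 0.28 between same-numbered embryo arrays and at 0.83, 0.36 and 0.39 in germlines. In embryos the differently numbered mutant array 3 and wild-type array 1 also correlated at 0.24, close to the same-numbered values, so the pairing is weakly marked. In germlines the differently numbered arrays 2 and 3 correlated more strongly (0.72 and 0.77), so there the numbers set apart number 1 and do not tell 2 from 3. The main fit had no block.

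Receptors were named where they were called, belonged to lists of conserved, early embryonic or metabolic receptors, had the 5 largest wild-type values per tissue, had the 3 largest non-overlapping changes per direction, or were among the 10 largest expressed in wild-type germlines. The members and lists were chosen with earlier results of these data known. Gene order, biotypes and symbols came from RefSeq (WBcel235), in which 258 of 259 symbols matched. The alternatives tried were the replicate block, thresholds, filters on dim or absent probe sets, probe set kind, averaging per gene, scaling, variance priors, array weights and leaving out arrays.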

Additional observations from a re-analysis of the deposited data

Results flagged for a closer look

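In 6 nhr probe sets (1.98%, against 0.956% of all probe sets) all mutant arrays moved one way in embryos and the other way in germlines, relative to all wild-type arrays of that tissue. The difference between tissues was not tested, the alleles and growth temperatures differ between tissues, and all 6 were called present on 0 germline arrays.

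nhr-78 (188348_at) was 0.40 higher in lin-54(n2990) embryos and -0.20 in lin-54(n3423) germlines, 0.603 apart on the log2 scale. nhr-161 (190077_at) differed by 0.29 and -0.31, which is 0.596 apart. nhr-55 (192136_at) differed by -0.35 in embryos and 0.16 in germlines, -0.507 apart. nhr-98 on its absent probe set 175258_at differed by -0.16 and 0.32, -0.479 apart. nhr-194 (190147_at) differed by -0.42 and 0.03, -0.449 apart. nhr-189 (191126_at) differed by -0.14 and 0.11, -0.248 apart. Only nhr-78 was present on all 6 embryo arrays, and nhr-98 (175258_at) and nhr-189 were present on none of either tissue.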

How the results depend on the processing

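Calls in embryos moved with most settings. Against 5 higher and 1 lower nhr probe sets, the replicate block gave 5 and 3, an adjusted p of 0.05 gave 0 and 0, a fold change of at least 2 gave 0 and 0, and no fold threshold gave 8 and 6. Only _at probe sets gave 3 and 1, averaging a gene's probe sets 2 and 0, centring on the median 8 and 1, quantile normalization 4 and 0, and array weights 3 and 7. Leaving out single arrays gave 3 to 5 higher and 0 to 9 lower ones, the 9 without the lin-54(n2990) array 3, and leaving out both arrays numbered 2, chosen after seeing the data, gave 4 and 0. Limits on the mean value or on presence, and a trended robust prior, gave 4 to 5 and 1. nhr-2 was called higher in each fit except at the adjusted p, at 2-fold and with probe sets averaged. The cause was not tested. In germlines 0 became 2 lower with array weights (nhr-4 and nhr-70), and 0 to 1 when arrays were left out, singly or, after seeing the data, both numbered 1 (1, nhr-70). No germline call changed with the block. The median nhr difference was -0.07 to -0.03 in embryos and -0.02 to 0.08 in germlines with single arrays left out. Nhr genes expressed in wild-type germlines, 21 by the score, were 36 when presence on at least 2 of 3 arrays on 1 probe set sufficed, and 19 to 24 without single arrays. The lin-54 difference in germlines was -2.62 to -1.95 without single arrays, and missed the call without the mutant array 2 or 3 or the wild-type array 2 or 3. Of the single named probe sets in embryos, 45 values under an alternative lost their call and 18 gained one. None changed direction after being called. In germlines no named probe set had a call to lose, and 3 values gained one. Probes near background limit the germline values, since 239 of 303 nhr probe sets were present on no germline array.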

Other observations

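Nuclear receptors that carry no nhr name, and partners of the family, were measured on the same arrays. None of the 5 such receptors (daf-12, fax-1, odr-7, sex-1 and unc-55) and none of the 17 partners was called in either tissue. The genes below were picked out after their values were seen. sex-1, which reads the number of X chromosomes in the early embryo, was higher on all 3 of its probe sets without overlap, and on 188033_s_at read 11.51, 11.94 and 11.56 in lin-54(n2990) embryos, against 11.16, 11.26 and 11.14 in wild-type embryos, a difference of 0.49 ± 0.13 (adjusted p = 0.123). daf-12, the receptor of dafachronic acids, read 7.88, 7.69 and 8.34 in lin-54(n2990) embryos, against 8.61, 8.41 and 8.57 in wild-type embryos on 175665_at, a difference of -0.56 ± 0.18 (adjusted p = 0.143), while its other probe sets differed by 0.02 and -0.04.

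In germlines fat-7, a fatty acid desaturase that NHR-49 turns on, read 6.13, 6.36 and 5.60 in lin-54(n3423), against 6.97, 6.79 and 7.87 in wild-type. The groups did not overlap, and the difference of -1.18 ± 0.35 had a p of 0.0157 (limma, adjusted p = 1). Some other transcripts varied widely over the same arrays. acdh-1 read 6.33, 9.02 and 4.99 in lin-54(n3423), against 7.77, 8.65 and 9.78 in wild-type, and asp-1 7.22, 9.18 and 6.84 against 7.39, 7.77 and 9.56. Like fat-7, both were lowest on the mutant array 3 and highest on the wild-type array 3. The same order was seen in fat-5, fat-6 and unc-119, and on acs-2 192195_at, sqt-3 172820_x_at, snb-1 191015_s_at and unc-15 194170_s_at. It was not seen on the other probe sets of acs-2, sqt-3, snb-1 and unc-15, and fat-5 and unc-119 were present on no germline array. The other intestine markers (elt-2, elt-7, ges-1 and vit-2) did not follow this order. For example, vit-2 was lowest on the mutant array 1 (5.73), and ges-1 ran between 5.64 and 6.02. What part such transcripts have in the fat-7 difference was not tested. The related fat-6 differed by -0.56 ± 0.56 with overlapping genotypes, and nhr-49 itself by 0.03 ± 0.22.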
